A study of Mus musculus with 5 samples.

Results

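The Ly49 receptors of mouse natural killer (NK) cells were examined through the genes whose symbol is Klra followed by a number. Of 13004 genes in the table, 13 met that rule. They were Klra1, Klra2, Klra3, Klra5, Klra7, Klra8, Klra9, Klra10, Klra17, Klra18, Klra22, Klra23 and the pseudogene Klra14-ps. Klra4, which encodes the activating receptor Ly49D, has no row among these genes and was not analysed here, nor were Klra6 and the pseudogenes Klra11-ps and Klra13-ps. RNA had been sequenced from spleen NK cells sorted as live cells negative for CD3 and positive for NK1.1 and DX5. There were 2 MycKO samples, replicates 5 and 6, with the genotype Mycdelta/delta/Ncr1Cre, in which Cre under control of the NK receptor gene Ncr1 deleted Myc. The 3 control samples, replicates 1, 2 and 3, had the genotype Mycf/f, with loxP-flanked Myc. All were from C57BL/6 mice 8 weeks old. Only the MycKO genotype lists a Cre, and effects of carrying Cre and of losing Myc therefore cannot be told apart.

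Ly49 receptors are lectin-like proteins of the NK cell surface, and most of them bind MHC class I molecules. Inhibitory members carry in their cytoplasmic tail a tyrosine motif, the ITIM, that recruits phosphatases such as SHP-1. Activating members lack it and signal through the adaptor DAP12. Each NK cell expresses only some of the genes, and most are switched on as the cell matures, so a level in bulk RNA mixes how many cells express a gene with how much each one makes. Fewer cells of a type and less RNA per cell cannot be told apart in these samples.

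The start of each coding sequence shows what sets the classes apart. The first 51 coding bases, the length of 1 read in this study, are given below for 6 inhibitory genes and the activating Klra4 and Klra8. They show the motif and how alike the genes are. They come from GENCODE vM21 transcripts on the GRCm38 (mm10) assembly, read from the start codon, and capitals mark the 6 codons of an ITIM (isoleucine, leucine or valine, any residue, tyrosine, any pair of residues, then isoleucine, leucine or valine).
Klra1 (Ly49A, inhibitory): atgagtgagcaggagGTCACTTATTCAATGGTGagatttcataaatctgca
Klra3 (Ly49C, inhibitory): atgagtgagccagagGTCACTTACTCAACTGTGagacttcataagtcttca
Klra9 (Ly49I, inhibitory): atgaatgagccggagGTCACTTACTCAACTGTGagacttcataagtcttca
Klra7 (Ly49G, inhibitory): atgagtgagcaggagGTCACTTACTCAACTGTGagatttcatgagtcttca
Klra5 (Ly49E, inhibitory): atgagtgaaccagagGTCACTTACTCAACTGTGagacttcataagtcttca
Klra2 (Ly49B, inhibitory): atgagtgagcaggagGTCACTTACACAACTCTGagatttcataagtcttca
Klra4 (Ly49D, activating, no row): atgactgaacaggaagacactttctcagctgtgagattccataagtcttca
Klra8 (Ly49H, activating): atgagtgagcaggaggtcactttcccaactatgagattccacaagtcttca
The motif began at residue 6 in every inhibitory gene of the table, including Klra10 and Klra17, and was not found in the stretch searched at the start of the Klra4 and Klra8 proteins. Likeness along the whole coding sequence varied between pairs. The coding sequences of Klra10 and Klra9 were 96.9% identical over 798 aligned bases, those of Klra3 and Klra9 95.9%, and those of the activating Klra8 and the inhibitory Klra9 91.85%, while the lowest identity of any pair was 73.3%, between Klra2 and Klra8.

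That likeness limits what a 51-base read can tell. For Klra8, 32.4% of the 51-base windows of its transcripts were identical to a window of another Ly49 gene, and 87.7% lay within 2 mismatches of one. The share within 2 mismatches was 91.2% for Klra10, 85% for Klra9, 81.8% for Klra3, 78.6% for Klra14-ps and 50.6% for Klra7. It was 23.1% for Klra5, 18.5% for Klra1, 0.421% for Klra17 and 0 for Klra2. Among the genes compared, reads of these last genes are the least open to being split between copies. The comparison held no sequence for the rows Klra18, Klra22 and Klra23, so splitting of reads with them was not measured. That matters for Klra1, since RefSeq gives Klra22 as another name of it. The treatment of reads matching several genes is not given in the sources used, and levels of Klra3, Klra7, Klra8, Klra9, Klra10 and Klra14-ps are therefore uncertain.

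**Figure D1:**
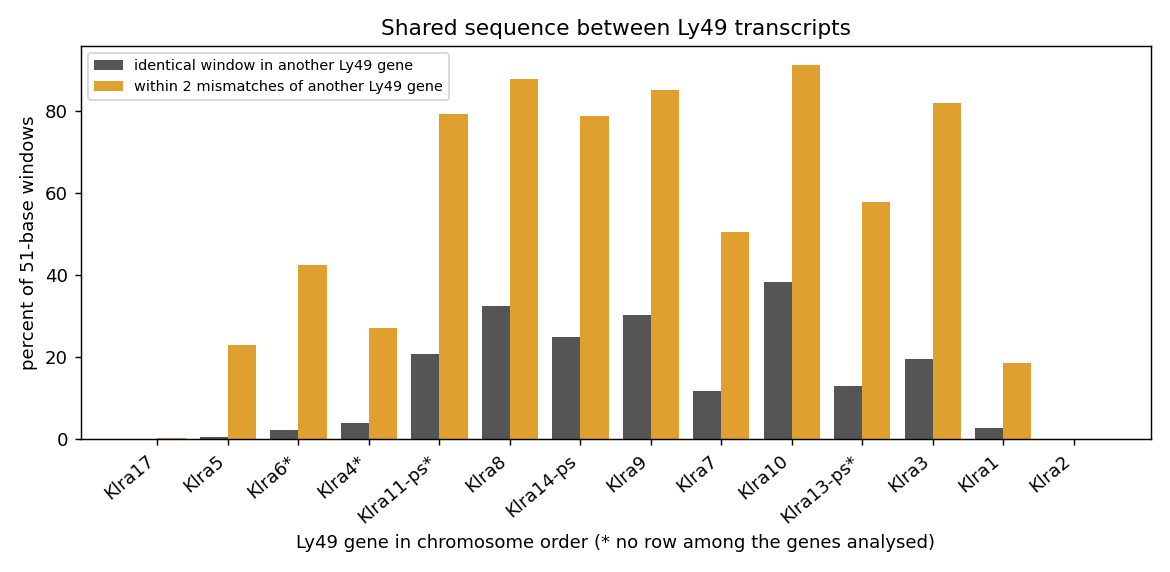
Percent of the 51-base windows of each Ly49 gene's GENCODE transcripts that occur in another Ly49 gene, identical (grey) or within 2 mismatches (orange), in chromosome order, with an asterisk on genes without a row. Klra2 and Klra17 share almost none, while Klra8 (87.7%) and Klra10 (91.2%) share most of theirs within 2 mismatches.

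Klra18, Klra22 and Klra23 need care for another reason. GENCODE vM21, built on the C57BL/6J genome, annotates none of them. In the RefSeq table Klra18 has no entry, Klra22 is given as another name of Klra1, Klra23 has an entry of its own, and the Ly49r of another mouse strain is given as another name of Klra4. The sources used do not say which C57BL/6 sequence these rows counted, and they are kept apart from the inhibitory and activating genes. The other genes lie on chromosome 6, minus strand, in the NK gene complex (mm10). Klra17 (129831154 to 129876672) stands at one end of the cluster and Klra1 (130363917 to 130386874) at the other, and Klra2 (131219223 to 131247362) lies apart from it.

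Reads in the listed genes came to 5451728 and 13337084 in MycKO 5 and 6, and to 14290690 to 17610826 in controls, so values of MycKO 5 carry more counting error. Ly49 rows took 0.145% and 0.209% of these reads in MycKO 5 and 6, against 0.187%, 0.155% and 0.222% in controls 1, 2 and 3. Values are RPKM, reads scaled by gene length and library total. Myc itself was at 12.5 and 8.70 RPKM in MycKO 5 and 6, against 13.0, 23.0 and 21.2 RPKM in controls 1, 2 and 3 (limma adjusted p = 0.297). Both MycKO samples were below all controls, but this is a level over the whole gene and the deleted part is not given, so it is no check of the deletion. Ncr1, the source of the Cre control region, averaged 688 ± 78.7 RPKM in MycKO (SD, n = 2) and 1264.5 ± 345 RPKM in controls (SD, n = 3; limma adjusted p = 0.143). NK lineage markers summed to 5423 and 6359 RPKM in MycKO samples and to 5421 to 6669 RPKM in controls, led by the granule protein gene Nkg7. Nothing in the labels ties each sample to a mouse of its own, and the p-values below reflect variation among these 5 samples that could be technical.

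The comparison asked whether Ly49 transcripts differ in spleen NK cells when Myc is deleted. No Ly49 gene passed the test. Among the 13 genes, limma called 0 at an adjusted p under 0.05, where 1.34% of all 11190 genes tested were called, 1.24% as higher and 0.0983% as lower in MycKO. At an unadjusted p under 0.05 there were 3, Klra5, Klra2 and Klra18, beside 13.2% of all genes tested. Limma-voom on the reads behind the RPKM values called 0 of 13 (2.07% of all genes), and the authors' deposited test called 1, Klra2, as higher (3.4% of all genes in either direction and 2.9% as higher). All 13 genes passed the filter on low values. The estimate was higher in MycKO for 5 genes and lower for 8, with a median log2 fold change of -0.15, beside 0.05 over all genes tested. The sign turned in limma-voom for Klra3, Klra8 and Klra17, and under other scalings for Klra7 and Klra17. The groups did not overlap in 2 of 13 genes, Klra2 and Klra5, both higher in MycKO, beside 29.1% of all genes tested (18.8% with MycKO above and 10.4% with MycKO below).

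The summed level of all Ly49 rows lay in the same range in both groups. It was 1048 and 1527 RPKM in MycKO 5 and 6, against 1375, 1120 and 1626 RPKM in controls 1, 2 and 3. MycKO samples thus hold the lowest and the second highest sum. The 8 inhibitory genes summed to 942 ± 252 RPKM in MycKO (SD, n = 2) and to 924 ± 174 RPKM in controls (SD, n = 3). Their median log2 fold change was -0.02, with 4 higher and 4 lower in MycKO.

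**Figure D2:**
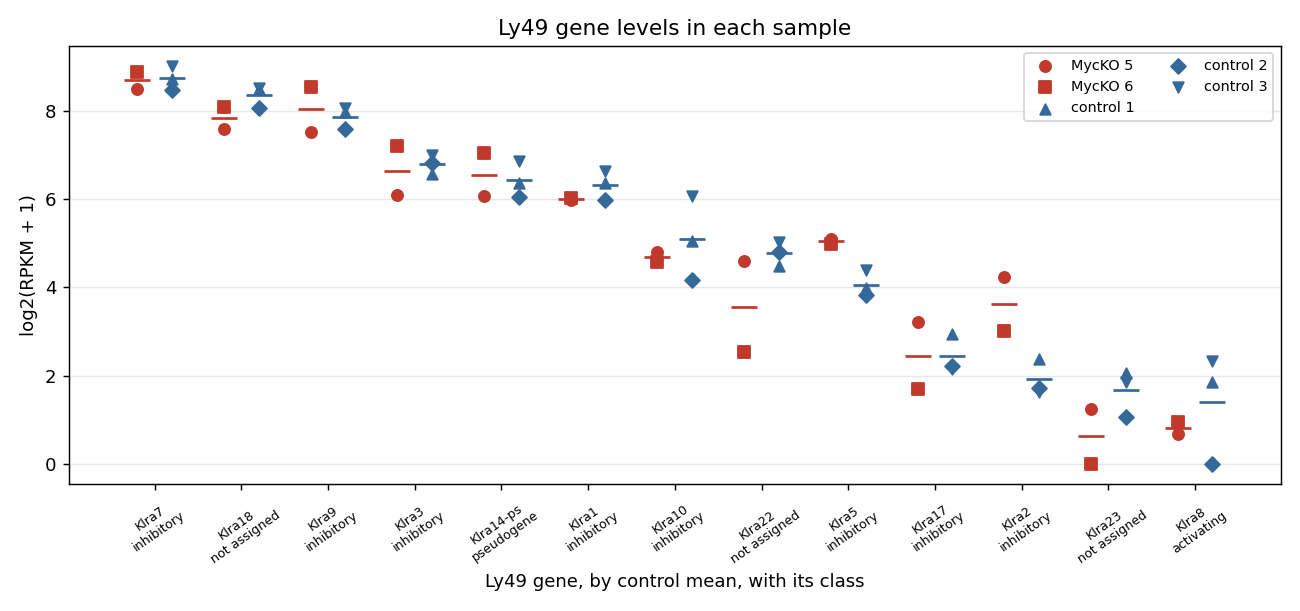
Level of each Ly49 gene as log2(RPKM + 1), MycKO samples in red to the left and controls in blue to the right of each gene, with horizontal bars for group means. The groups separate for Klra5 and Klra2, and overlap in the other 11 genes.

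Klra7, which encodes the inhibitory receptor Ly49G, was the most abundant of the family. It was at 364 and 472 RPKM in MycKO 5 and 6, against 421, 358 and 520 RPKM in controls 1, 2 and 3. The MycKO values fall inside the control range. Its log2 fold change was -0.05 (SE 0.18, 95% interval -0.47 to 0.38; limma adjusted p = 0.961). Klra7 made up 34.7% and 30.9% of the summed Ly49 RPKM in MycKO 5 and 6 and 30.6% to 32.0% in controls.

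Klra9 and Klra3 encode Ly49I and Ly49C, inhibitory receptors that can bind the H-2K molecule of C57BL/6 mice. Klra9 was at 184 and 374 RPKM in MycKO 5 and 6, against 250.4, 191 and 268 RPKM in controls 1, 2 and 3. Klra3 was at 67.4 and 147 RPKM in MycKO 5 and 6, against 94.4, 113 and 128 RPKM in controls 1, 2 and 3. For both genes MycKO 5 was the lowest of the 5 samples and MycKO 6 the highest. The log2 fold change was 0.17 for Klra9 (SE 0.29; limma adjusted p = 0.899) and -0.15 for Klra3 (SE 0.30; limma adjusted p = 0.917). The pseudogene Klra14-ps had the same order at its ends, with 131 RPKM in MycKO 6 and 66.1 RPKM in MycKO 5, although control 2 was lower still at 65.6 RPKM. Summed, these 3 rows were at 318 and 652 RPKM in MycKO 5 and 6, against 426, 369 and 511 RPKM in controls 1, 2 and 3. A fit on the sum, chosen after seeing the data, gave a log2 fold change of 0.08 (95% interval -0.59 to 0.74; limma adjusted p = 0.959).

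Klra1 encodes Ly49A, an inhibitory receptor best known for binding H-2D of another haplotype. It was at 62.3 and 64.2 RPKM in MycKO 5 and 6, against 81.0, 62.2 and 99.0 RPKM in controls 1, 2 and 3. Control 2 lay just under both MycKO samples. The log2 fold change was -0.32 (SE 0.19, 95% interval -0.76 to 0.12; limma adjusted p = 0.562). Klra10, which encodes Ly49J, was at 26.7 and 22.9 RPKM in MycKO 5 and 6, against 32.0, 17.1 and 66.5 RPKM in controls 1, 2 and 3. Its controls spread over a wider range than the MycKO samples, and the log2 fold change was -0.41 (SE 0.47; limma adjusted p = 0.822).

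Klra5 encodes Ly49E, an inhibitory receptor known from fetal and newborn NK cells. It was at 33.3 and 30.9 RPKM in MycKO 5 and 6, against 14.8, 13.2 and 19.9 RPKM in controls 1, 2 and 3. Both MycKO samples lay above all 3 controls, and they were close to each other. The mean was 32.1 ± 1.71 RPKM in MycKO (SD, n = 2) and 16.0 ± 3.54 RPKM in controls (SD, n = 3). The log2 fold change of 0.98 (SE 0.20, 95% interval 0.52 to 1.45) had the smallest unadjusted p of the family, 0.00139 by limma, and an adjusted p of 0.0696. In the authors' deposited table the log2 fold change was 0.95 with an adjusted p of 0.137. Type 1 innate lymphoid cells share NK1.1 with NK cells, and the sort for DX5 would remove those that lack it. Their markers summed to 138 and 204 RPKM in MycKO 5 and 6 and to 70.0 to 86.6 RPKM in controls. All 9 of them were detected in every control and all 9 were higher in MycKO. In this list 1 passed limma, Tmem176b, beside 1.24% of all genes tested called as higher. The part of type 1 innate lymphoid cells in the level of Klra5 was not tested. Genes of immature NK cells were also higher in MycKO, in 9 of 10 listed. Of the 10, 2 passed, beside the same 1.24% of all genes. They were Kit (log2 fold change 1.23, limma adjusted p = 0.0214) and Cd7 (0.64, limma adjusted p = 0.0295).

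Klra2 encodes Ly49B, an inhibitory member known mainly from myeloid cells rather than NK cells. It was at 17.98 and 7.07 RPKM in MycKO 5 and 6, against 4.23, 2.29 and 2.11 RPKM in controls 1, 2 and 3. These values rest on 185 and 178 reads in MycKO 5 and 6, and on 120, 76 and 57 reads in controls 1, 2 and 3. Both MycKO samples lay above all 3 controls. Its log2 fold change was 1.72 (SE 0.43, 95% interval 0.72 to 2.71; limma adjusted p = 0.124). The authors' deposited test called it, at 2.05 with an adjusted p of 0.0262. Markers of macrophages and monocytes were also higher in MycKO. They summed to 1543 and 1416.5 RPKM in MycKO 5 and 6 and to 270 to 424 RPKM in controls. All 12 were higher in MycKO and none was at 0 in a control. Of the 12, 10 passed limma, beside 1.24% of all genes tested called as higher. The most abundant of them was the lysozyme gene Lyz2, at 734 and 210.5 RPKM in MycKO 5 and 6, against 102, 219.7 and 55.1 RPKM in controls 1, 2 and 3. Control 2 lay above MycKO 6 in Lyz2, whose limma adjusted p was 0.265. Without Lyz2 the markers summed to 809 and 1206 RPKM in MycKO 5 and 6 and to 179 to 214.5 RPKM in controls. The markers that passed limma ran both ways between the MycKO samples. Fcgr1, Cd68 and Csf1r were higher in MycKO 5, and Hmox1, Vcam1, Spic, Adgre1, C1qa, C1qb and C1qc in MycKO 6. The part of macrophages and monocytes in the level of Klra2 was not tested.

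Klra17 encodes Ly49Q, an inhibitory member known from plasmacytoid dendritic cells and neutrophils. It was at 8.25 and 2.23 RPKM in MycKO 5 and 6, against 6.72, 3.67 and 3.45 RPKM in controls 1, 2 and 3. MycKO 5 was the highest sample and MycKO 6 the lowest. The log2 fold change was 0.01 (SE 0.49; limma adjusted p = 0.999). Plasmacytoid dendritic cell markers summed to 115 and 85.4 RPKM in MycKO 5 and 6 and to 50.1 to 64.6 RPKM in controls, with Siglech, Ccr9, Pacsin1 and Klk1 at 0 in at least 1 control. All 7 of those tested were higher in MycKO, led in abundance by Bst2. Limma called 0 of them, as did limma-voom and the authors' deposited test. An unadjusted limma p under 0.05 was reached by 4, beside 13.2% of all genes tested. Neutrophil markers summed to 539 and 211 RPKM in MycKO 5 and 6 and to 29.7 to 66.7 RPKM in controls. In all 5 neutrophil markers tested the estimate was higher in MycKO, and Mpo was at 0 in at least 1 control. Among the 5, 1 passed limma, S100a8, beside 1.24% of all genes tested called as higher. The part of these cells in the level of Klra17 was not tested.

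Klra18, Klra22 and Klra23 were put in neither the inhibitory nor the activating class, and whether they hold reads of activating genes is not known. Of the classed rows, Klra8 alone was activating. It encodes Ly49H, the receptor for a mouse cytomegalovirus protein, and is known to be expressed by a large share of C57BL/6 NK cells. Here it was at 0.606 and 0.942 RPKM in MycKO 5 and 6, against 2.59, 0 and 4.02 RPKM in controls 1, 2 and 3. These are 5 and 19 reads in MycKO 5 and 6, and 59, 0 and 87 reads in controls 1, 2 and 3. The count of 0 in control 2 allows up to 3 reads, or 0.113 RPKM, counting error only. MycKO values lay between the lowest and the higher controls, and the log2 fold change was -0.57 (SE 0.68, 95% interval -2.15 to 1.011; limma adjusted p = 0.83), against 0.82 in limma-voom. With 87.7% of its windows within 2 mismatches of another Ly49 gene, the level of Klra8 in this table is uncertain.

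Among classed rows, the comparison of inhibitory with activating Ly49 genes thus rests on 8 genes against 1. The rows in neither class, Klra18, Klra22 and Klra23, summed to 217.5 and 275 RPKM in MycKO 5 and 6. In controls they summed to 294 to 400.5 RPKM. The mean log2(RPKM + 1) of the inhibitory genes exceeded the level of Klra8 by 5.0 and 4.66 in MycKO 5 and 6. In controls 1, 2 and 3 the difference was 3.65, 5.10 and 3.30. Control 2, with no Klra8 read, had the largest difference, and the groups overlapped. No test was made, since the activating class is 1 gene at a few reads, Klra4 was not analysed here and those rows have no class. The low level of Klra8 therefore cannot be read as the level of all activating Ly49 RNA.

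Klra18 was among the 3 most abundant rows in both groups. It was at 193 and 270.4 RPKM in MycKO 5 and 6, against 362, 266 and 366 RPKM in controls 1, 2 and 3. Control 2 fell between the MycKO samples. The mean was 232 ± 54.7 RPKM in MycKO (SD, n = 2) and 331.5 ± 56.5 RPKM in controls (SD, n = 3). The log2 fold change was -0.52 (SE 0.19, 95% interval -0.97 to -0.07; limma unadjusted p = 0.0282, adjusted p = 0.305), and -0.58 with an adjusted p of 0.0752 in the authors' deposited table. As a share of the summed Ly49 RPKM it was 18.4% and 17.7% in MycKO 5 and 6, against 26.3%, 23.8% and 22.5% in controls 1, 2 and 3. In share, unlike in level, both MycKO samples lay below all 3 controls. By level, 10.4% of all genes tested lay below all controls in both MycKO samples. In share Klra2 and Klra5 lay above all controls, and the remaining rows overlapped. A share depends on the other rows too, so it can change without a change in the level of Klra18 itself.

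**Figure D3:**
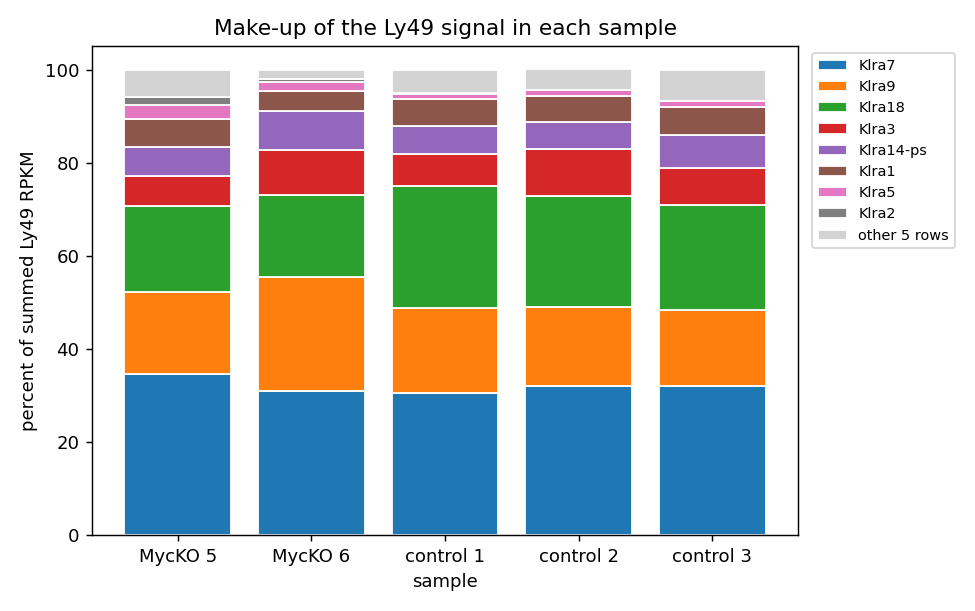
Percent of the summed Ly49 RPKM taken by each gene, MycKO samples left and controls right. Klra7 takes 30.6% to 34.7% in every sample, while Klra18 takes 18.4% and 17.7% in MycKO 5 and 6 and 22.5% to 26.3% in controls.

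Klra22 and Klra23 were lowest in MycKO 6. Klra22 was at 23.2 and 4.801 RPKM in MycKO 5 and 6, against 21.5, 27.0 and 31.5 RPKM in controls 1, 2 and 3. MycKO 5 was within the control range and MycKO 6 far below it. The log2 fold change was -1.21 (SE 0.53; limma adjusted p = 0.388), and -2.24 with a limma adjusted p of 0.0284 when MycKO 5 was left out. Klra23 was at 1.37 RPKM in MycKO 5 and 0 in MycKO 6, against 3.20, 1.09 and 2.62 RPKM in controls 1, 2 and 3. No read of it was counted in MycKO 6, which allows up to 0.24 RPKM, and its log2 fold change was -1.04 (SE 0.51; limma adjusted p = 0.456). The estimate differed between methods, at -3.62 in limma-voom and -1.87 in the authors' deposited table, and neither called it.

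**Figure D4:**
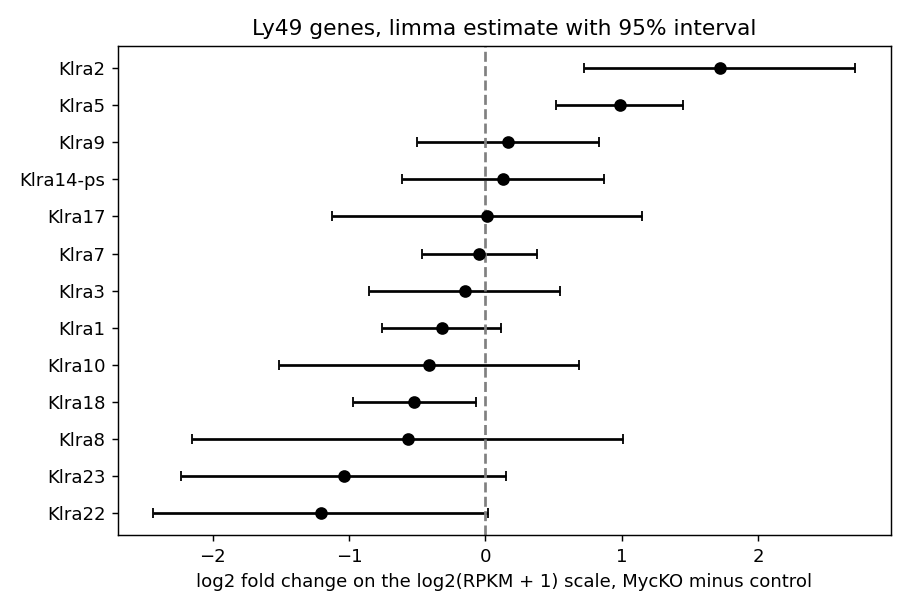
MycKO minus control log2 fold change (limma, RPKM + 1) of each Ly49 gene, with unadjusted 95% intervals. The intervals of Klra2, Klra5 and Klra18 exclude 0, and none of the 13 genes passed after adjustment over 11190 genes.

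The order of levels was nearly the same in both groups. In MycKO, Klra7 (mean 418 RPKM) came first, then Klra9 (279), Klra18 (232), Klra3 (107), Klra14-ps (98.4), Klra1 (63.3) and Klra5 (32.1). In controls it was Klra7 (433), Klra18 (331), Klra9 (236), Klra3 (112), Klra14-ps (87.3), Klra1 (80.7) and Klra10 (38.5). The ranges of neighbours overlapped for Klra7, Klra9 and Klra18 in both groups, and for Klra3 and Klra14-ps. Within every sample, though, Klra7 was above Klra9 and Klra18, and Klra3 was above Klra14-ps. Klra18 was above Klra9 in every control and in MycKO 5, and below it in MycKO 6. In both groups a gap with no overlap followed the first 3 genes. Klra5 ranked 7 in MycKO and 9 in controls, and its range overlapped neither neighbour in either group.

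In 6 of 13 Ly49 genes MycKO 6 and MycKO 5 were apart by at least 1 on the log2(RPKM + 1) scale, beside 7.22% of all genes tested (3.2% higher and 4.02% lower in MycKO 6). Klra3 (1.11) and Klra9 (1.02) were higher in MycKO 6. Klra22 (-2.06), Klra17 (-1.52), Klra23 (-1.25) and Klra2 (-1.23) were lower in it. With the 0 of Klra23 in MycKO 6 set to the 3 reads it allows, its difference was -0.94 and 5 genes remained at 1 or more. In the 6 genes, and in Klra14-ps and Klra18, the gap between the MycKO samples was wider than the whole range of the controls. For Klra23 this held only with its 0 taken as exact. The share of all genes tested with such a gap was not worked out, so this describes these genes only. The Klra22 values rest on 156 reads in MycKO 5 and 79 in MycKO 6.

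**Figure D5:**
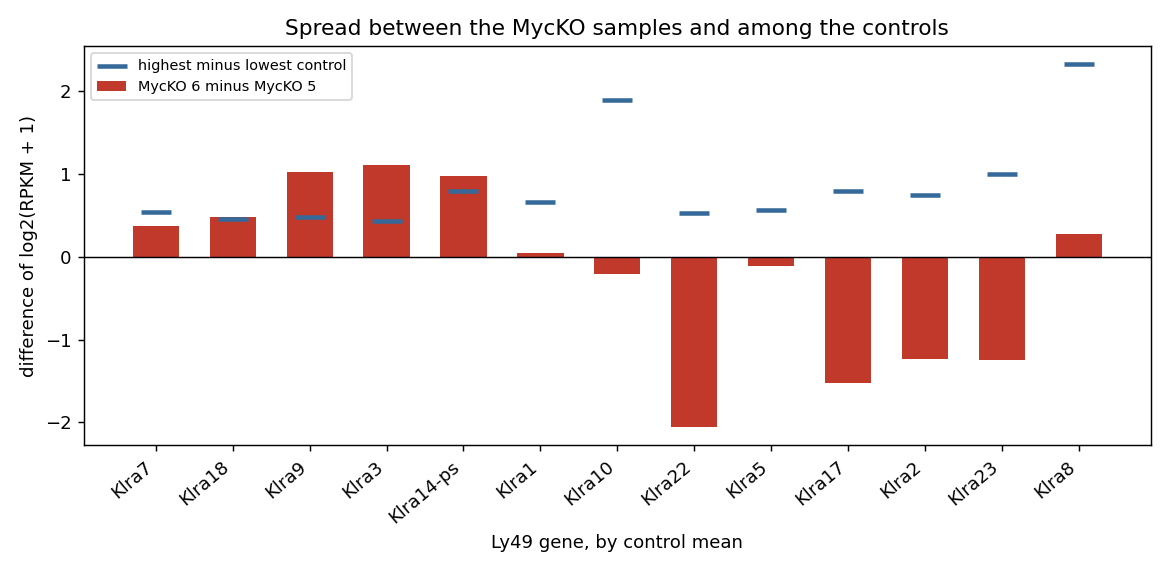
Difference of log2(RPKM + 1) between MycKO 6 and MycKO 5 for each Ly49 gene (red bars), with the range of the 3 controls (blue lines). Klra3 and Klra9 are higher in MycKO 6 and Klra22 is lower (-2.06), each by more than the controls' range. The share of all genes tested with such a gap was not worked out.

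Of 15 other genes listed from the NK gene complex 14 were measured, 13 lectin-like genes and the autophagy gene Gabarapl1. MycKO 6 and MycKO 5 were apart by at least 1 on the log2(RPKM + 1) scale in Klrc3 (-1.92), Klrb1b (1.42) and Klri2 (1.09). For all genes tested that share was 7.22%. Klrc1, at 0.95, did not reach 1. Klrc3, which encodes an NKG2 receptor, was at 181 and 47.1 RPKM in MycKO 5 and 6, against 251, 211 and 252 RPKM in controls 1, 2 and 3. It lay below all controls in both MycKO samples, with a log2 fold change of -1.35 (limma adjusted p = 0.269), while limma-voom called it (-1.73, adjusted p = 0.0229). Klrb1b, which encodes an inhibitory NKR-P1 receptor, was at 58.9 and 159.6 RPKM in MycKO 5 and 6, against 78.2, 67.0 and 51.6 RPKM in controls 1, 2 and 3. MycKO 6 was above every other sample. Klrc1, which encodes the inhibitory NKG2A, was at 351 and 679 RPKM in MycKO 5 and 6, against 447, 376 and 466 RPKM in controls 1, 2 and 3, again lowest in MycKO 5 and highest in MycKO 6. Limma called 0 of these 14 genes, beside 1.34% of all genes tested, with 3 at an unadjusted p under 0.05, beside 13.2%. Limma-voom called 1, Klrc3 (2.07% of all genes), and the authors' deposited test called 0 (3.4% of all genes). The other smallest p belonged to Gabarapl1 (log2 fold change 0.63; limma adjusted p = 0.118).

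Genes that work with the Ly49 receptors were read from 4 further lists. Limma called 0 of their 29 members tested, beside 1.34% of all genes tested. For ligands and their assembly, all 7 genes were higher in MycKO with a median log2 fold change of 0.19, none had an unadjusted p under 0.05, and neither limma-voom nor the authors' deposited test called one. The smallest p belonged to the peptide transporter gene Tap2 (0.29; limma adjusted p = 0.395) and the peptide-loading gene Tapbp (0.21; limma adjusted p = 0.475). In activating signalling, 5 of 12 were higher and 7 lower, with a median of -0.07. An unadjusted p under 0.05 was reached by 3, beside 13.2% of all genes tested. Zap70, a kinase downstream of ITAM adaptors, was at 48.1 and 43.8 RPKM in MycKO 5 and 6, against 61.5, 70.4 and 60.3 RPKM in controls 1, 2 and 3. Both MycKO samples were below all controls, with a log2 fold change of -0.47 (limma adjusted p = 0.151), and the authors' deposited test called it (adjusted p = 0.028). The phospholipase gene Plcg1, with 4.03 ± 2.07 RPKM in MycKO (SD, n = 2) and 0.811 ± 0.314 RPKM in controls (SD, n = 3), had a limma adjusted p of 0.168 and was called in the authors' deposited table (0.0367). T cells express Plcg1 and Zap70 too, and the sort took cells negative for CD3. Of 9 T cell markers tested, 7 had a higher estimate in MycKO. Among them 3 passed limma, Cd8a and the CD3 genes Cd3e and Cd3g, beside 1.24% of all genes tested called as higher. Cd3g was at 62.0 and 75.9 RPKM in MycKO 5 and 6, against 11.5, 14.3 and 8.14 RPKM in controls 1, 2 and 3. The part of T cells in the levels of Plcg1 and Zap70 was not tested. In inhibitory signalling, the SHP-1 gene Ptpn6 (0.20; limma adjusted p = 0.682) and the SHP-2 gene Ptpn11 (-0.13; limma adjusted p = 0.848) had the smallest p of 3 genes, none at an unadjusted p under 0.05 and none called by limma-voom or in the authors' deposited table.

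Limma called 0 (1.34% of all genes tested) of 7 transcription factors known to act on Ly49 genes. Their median log2 fold change was -0.12, with 6 estimates lower in MycKO and 4 at an unadjusted p under 0.05, beside 13.2% of all genes tested. Tbx21, which encodes T-bet, was at 133.5 and 147 RPKM in MycKO 5 and 6, against 219, 190.1 and 206 RPKM in controls 1, 2 and 3. Both MycKO samples were below all controls, and the log2 fold change was -0.54 (limma adjusted p = 0.0695). Limma-voom and the authors' deposited test both called Tbx21, with adjusted p-values of 0.0313 and 0.00272. Runx3, whose product is known to be needed for normal Ly49 expression, averaged 61.1 ± 1.34 RPKM in MycKO (SD, n = 2) and 78.4 ± 5.35 RPKM in controls (SD, n = 3; log2 fold change -0.35; limma adjusted p = 0.227). Genes of mature NK cells, a list that also holds Tbx21, were lower in MycKO in 12 of 13 listed. Of the 13, 4 passed limma, Klrg1, Itgam, S1pr5 and Cma1, beside 0.0983% of all genes tested called as lower.

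Promoter sequence from RefSeq (GRCm38.p6; 250 bases before to 50 after a start) was held for 11 Ly49 symbols, 9 of them among the 13 rows, in 13 windows. Those of the 2 genes whose groups did not overlap, Klra5 and Klra2, are shown with one of Klra7, the most abundant gene, whose level was alike in both groups. Capitals mark, on either strand, 2 stretches chosen on reading the windows (AAGAGGAGG and GAGTATNAC), the RUNX core TGTGGT, the T-box core TCACAC, the E-box CACGTG that MYC binds, the STAT5 motif TTCNNNGAA and the TCF motif, spelled AACAAAG, or with its second base changed ATCAAAG, or with its first base changed TACAAAG, or with both changed TTCAAAG.
Klra5 (chr6:129913175-129913474, minus strand): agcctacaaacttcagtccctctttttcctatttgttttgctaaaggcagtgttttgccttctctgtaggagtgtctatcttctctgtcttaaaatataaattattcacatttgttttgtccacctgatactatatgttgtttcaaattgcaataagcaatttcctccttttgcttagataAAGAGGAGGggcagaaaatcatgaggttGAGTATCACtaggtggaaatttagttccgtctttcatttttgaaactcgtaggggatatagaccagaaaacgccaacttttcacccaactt
Klra2 (chr6:131247313-131247612, minus strand): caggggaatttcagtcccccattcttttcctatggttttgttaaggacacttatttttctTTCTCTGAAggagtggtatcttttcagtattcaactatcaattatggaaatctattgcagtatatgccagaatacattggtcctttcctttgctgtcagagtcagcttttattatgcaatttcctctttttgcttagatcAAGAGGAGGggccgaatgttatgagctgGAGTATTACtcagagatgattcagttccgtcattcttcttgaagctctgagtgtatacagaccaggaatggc
Klra7 (chr6:130233273-130233572, minus strand): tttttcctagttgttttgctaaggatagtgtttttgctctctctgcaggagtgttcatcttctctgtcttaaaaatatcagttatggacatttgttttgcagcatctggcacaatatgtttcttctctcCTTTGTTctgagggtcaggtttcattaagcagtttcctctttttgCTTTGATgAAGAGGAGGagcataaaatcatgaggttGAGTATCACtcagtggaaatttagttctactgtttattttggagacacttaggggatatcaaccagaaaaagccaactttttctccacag
The stretch GAGTATNAC occurred in 9 of 13 Ly49 windows and in 0.35% of all 32851 promoter windows, and AAGAGGAGG in 7 of 13 and 1.46%. Since both were chosen on these windows, the contrast is a description and no test. The counts include 2 overlapping windows of Klra8, each with both stretches. Both are present in the windows shown of Klra5, Klra2 and Klra7 alike. Another window of Klra7 (chr6:130231638-130231937), not shown, held neither. No Ly49 window held CACGTG, against 7.15% of all windows. TGTGGT and TCACAC each occurred in 1 Ly49 window, that of Klra1, against 16.8% and 14.5% of all windows. A TCF motif was in 4 windows, of Klra6, Klra7 and Klra9, against 16.9% of all, and TTCNNNGAA in 3, of Klra10, Klra2 and Klra7, against 8.3%. For Klra7, TTCNNNGAA was in the window not shown and absent from the one shown. No base lay in more than 1 motif. A match is a description of these letters and not a site.

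The genes whose values over the 5 samples ran closest to the summed inhibitory Ly49 genes were Esco1, a cohesin acetyltransferase gene, Cox7a2, a cytochrome c oxidase subunit gene, and Gimap3, a lymphocyte GTPase gene. Their root mean square differences on the centred log2 scale were 0.0387, 0.0636 and 0.0753, against a median of 0.293 over 2503 candidate genes. For Klra8 the closest were Cbx7, Ly6c2 and Snrnp27, at 0.506, 0.509 and 0.526 against a median of 0.844. Candidates were limited to a mean log2 level of at least 5, well above Klra8, so genes at its low level were not compared.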

How the data were processed

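RNA of 5 samples was measured. Per the submitters' processing notes, TopHat and edgeR were used, with no role or version given, and the build was mm10. The authors deposited 1 table of RPKM values per sample, mean normalized signal per group, a ratio (fold change) with its log2 value, and p-values. Libraries were stranded, per the labels. Neither the counting step and its strand setting, nor the annotation, nor the program behind the p-values is stated in the sources used.

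RPKM was analysed as log2(RPKM + 1). The filter kept 11190 of 13004 genes, those reaching 1 RPKM in 2 or more samples, and limma 3.58.1 (R 4.3.3, trend on, residual df 3, median prior df 4.41) was fitted. Tests were two-sided, with Benjamini-Hochberg adjustment over all genes tested and a threshold of 0.05. Fold changes are on that scale, which understates changes of low genes. RPKM and group means together gave the reads behind each value, whole within 0.0001 of a read for 100% of values. Limma-voom was run on those reads.

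The members and lists were chosen with earlier results of these data known. Named genes were all Klra rows, Myc, Ncr1, from each of 5 pathway lists the 2 genes of lowest p, the most abundant member of marker lists, and the 3 genes nearest in profile to the summed inhibitory and to the activating genes (mean log2 level of at least 5). Genes outside that rule were named after their values were seen. Marker lists not named in the report gave summed levels of 184 and 186 RPKM in MycKO 5 and 6 and 119 to 156 RPKM in controls for B cells, led by Cd72. For conventional dendritic cells they were 266 and 213 RPKM against 179 to 216 RPKM, led by Itgax. For erythroid genes they were 203 and 92.9 RPKM against 3.37 to 4.72 RPKM, led by Car1, and for basophils and mast cells 60.6 and 9.12 RPKM against 3.10 to 4.64 RPKM, led by Mcpt8. T cell markers summed to 408 and 536 RPKM against 302 to 432 RPKM, led by Cd2, and Cxcr3 led the markers of type 1 innate lymphoid cells.

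Windows of 51 bases were compared on the sense strand of GENCODE vM21 transcripts. The procedure was tested on simulated data. Python 3.11.15 and matplotlib 3.10.9 made the figures.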

Additional observations from a re-analysis of the deposited data

How the results depend on the processing

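No paired analysis was possible because the groups share no replicate number. The number of Ly49 genes called stayed at 0 under median-of-ratios, upper-quartile and NK lineage scaling, a pseudocount of 0.1, either other filter (none, or 5 RPKM), limma-voom, and with Klra3, Klra9 and Klra14-ps summed, a choice made after seeing the data. It was 1 in the authors' deposited test, which called Klra2 (2.05), and ranged over 0 to 1 with a sample left out, where Klra22 was called without MycKO 5. Log2 fold changes that turned sign were those of Klra3 (0.00998), Klra8 (0.823) and Klra17 (-0.493) in limma-voom, of Klra17 under median-of-ratios scaling (-0.0331) and a pseudocount of 0.1 (-0.0287), and of Klra7 under NK lineage scaling (0.061). The mean log2 fold change of inhibitory genes minus that of Klra8 was 0.813. It was -0.592 in limma-voom, 1.8 in the authors' deposited table and 0.644 to 1.36 with a sample left out. The estimate of Klra23 was -1.04, and -2.52 with a pseudocount of 0.1, -3.62 in limma-voom and -1.87 in the authors' deposited table. The cause of these changes was not tested.

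With 1 sample left out in turn, the log2 fold change ranged over -0.708 to 0.404 for Klra3, -0.233 to 0.141 for Klra7, -0.344 to 0.675 for Klra9, -0.874 to 0.075 for Klra10, -0.357 to 0.615 for Klra14-ps, -0.75 to 0.769 for Klra17 and -2.24 to -0.178 for Klra22. It ranged over -0.495 to -0.164 for Klra1, -1.27 to -0.434 for Klra8, -1.66 to -0.417 for Klra23, 1.1 to 2.33 for Klra2, 0.863 to 1.14 for Klra5 and -0.763 to -0.278 for Klra18. Klra8 did not pass the low-value filter without control 1, without control 3 or at 5 RPKM, and Klra23 did not at 5 RPKM, so they have no value there. A fit without 1 MycKO sample assumes that the remaining one varies like the controls. The shallow depth of MycKO 5 limits genes with few reads, such as Klra8, Klra17 and Klra23.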
